A study of Mus musculus with 6 samples.

Results

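The genes described here encode the proteins of the cytosolic ribosome, measured in mouse liver on Affymetrix expression arrays. Members were taken by symbol: probe sets that the platform annotation pairs with 1 gene only, whose symbol starts with Rpl, Rps or Rplp and a number, or is Rpsa, leaving out pseudogene symbols, the Rps6k kinases and Rps19bp1. This gave 49 genes, 26 of the large and 23 of the small subunit, out of 18193 genes measured by a probe set of 1 gene, and 105 probe sets. Where a gene had several, the one whose mean over the 6 arrays was highest stands for it. The members include 6 paralogs with the suffix l or l1 (Rpl3l, Rpl7l1, Rpl22l1, Rpl39l, Rps27l and Rps4l), and Rps4l is listed as a transcribed pseudogene in the RefSeq gene table, so the label of the family does not hold for it. Another 110 probe sets were paired with several genes, a ribosomal protein gene among them, and are given only as a group.

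The study compared 2 strains of female mice aged 8 weeks on chow. C57BL/6J is the inbred background strain, with 3 mice, and B6.C3H-6T is a congenic strain with a stretch of C3H chromosome 6 in that background, which the study describes as having little IGF-1 in its serum, also with 3 mice. Each array held the liver RNA of 1 mouse, none was pooled, and the labels give neither the limits of the C3H segment nor a batch. All values are deposited log2 expression values, and a difference is the B6.C3H-6T mean minus the C57BL/6J mean.

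The cytosolic ribosome translates all mRNA outside the mitochondria. Its small subunit reads the mRNA and its large subunit joins the amino acids, and each ribosomal protein is needed in about the same number of copies. Liver makes the plasma proteins and is rich in ribosomes. Ribosomal protein mRNA typically starts with a tract of pyrimidines, the 5' TOP sequence, through which growth factor signals acting on mTORC1 control its translation and stability. The promoters of these genes often lack a TATA box and hold sites for ETS family factors and YY1.

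The window around the RefSeq start is shown for the members named below that have a single window, where it holds a pyrimidine run of at least 8 bases. A tract at the start is the feature the family is known to share. Each window runs from 10 bases before to 20 bases from the start onward, 5' to 3', from RefSeq on GRCm38.p6. Capitals mark the longest run of C and T. A marked run need not begin at the start itself. In Rpl22l1 and Rpl39 it begins after the start, and in Rpl14 and Rps9 it lies mostly before it.
Rpl27a (chr7:109519185-109519214, plus strand): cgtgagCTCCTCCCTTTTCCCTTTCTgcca
Rpl14 (chr9:120571507-120571536, plus strand): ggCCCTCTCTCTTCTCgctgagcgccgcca
Rps18 (chr17:33955646-33955675, minus strand): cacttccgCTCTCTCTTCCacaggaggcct
Rpl22l1 (chr3:28805498-28805527, plus strand): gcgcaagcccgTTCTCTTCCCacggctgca
Rps6 (chr4:86857348-86857377, minus strand): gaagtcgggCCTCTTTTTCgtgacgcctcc
Rplp2 (chr7:141447641-141447670, plus strand): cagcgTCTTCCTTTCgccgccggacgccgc
Rps9 (chr7:3704031-3704060, plus strand): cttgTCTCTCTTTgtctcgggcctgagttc
Rps27 (chr3:90213629-90213658, minus strand): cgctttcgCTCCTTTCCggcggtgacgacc
Rpl39 (chrX:37085203-37085232, minus strand): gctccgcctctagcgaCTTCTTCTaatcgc
Named members with several windows, Rps19, Rpl22, Rps27l and Rpl3l, were left out here. The windows above are those of 9 of the 20 named members with a single window. In the other 11 no run reached 8 bases, as in Rps16, which is shown as 1 example of them.
Rps16 (chr7:28350679-28350708, plus strand): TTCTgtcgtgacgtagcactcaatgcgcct

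RefSeq windows of 300 bases (250 before the start and 50 after) were found for 43 of the 49 members, 51 windows in all, and not for Rpl7, Rpl8, Rps14, Rps20, Rps29 and Rps4l. A pyrimidine run of at least 8 bases near the start, a measure chosen after the sequences were seen, was present in 33.3% of the member windows and in 11.2% of all 32851 windows. The ETS core CCGGAAG, on either strand of the whole window, was present in 41.2% against 8.86%. The YY1 core AAGATGG, likewise on both strands, was present in 15.7% against 6.34%, and TATAAA in 11.8% against 13.6%. The sense strand within 25 bases of the start held CTTTCC in 13.7% against 2.46%, and CTCTTTC in 3.92% against 0.682%. These 2 motifs overlap each other and the pyrimidine run. An example of the ETS core, in capitals, is the stretch of 60 bases that ends at the base before the start of Rps3a1 (chr3:86142669-86142728, minus strand, GRCm38.p6, RefSeq).
Rps3a1: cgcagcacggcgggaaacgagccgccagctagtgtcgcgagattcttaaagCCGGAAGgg

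The arrays were alike in their medians, 6.07 to 6.11, and correlated with each other at 0.994 to 0.997 as a description, over every probe set. Of 8 hepatocyte markers 7 were measured, each with a mean of at least 11.7. Of these 6 were higher in B6.C3H-6T, 2 at an unadjusted p under 0.05 in limma (28.6% of the list, against 12.2% of all genes). Their mean per array ran from 13.38 to 13.48 in C57BL/6J and from 13.49 to 13.57 in B6.C3H-6T, without overlap. All 8 markers of Kupffer cells and other macrophages were lower in B6.C3H-6T, 7 of them at an unadjusted p under 0.05 (87.5%, against 12.2% of all genes). Their array means were 9.28 to 9.56 and 8.93 to 9.17. Endothelial markers were lower in 7 of 8 cases, with overlapping array means of 8.65 to 8.73 and 8.52 to 8.71. Cholangiocyte markers were higher in 4 of 4, with array means of 6.341 to 6.387 and 6.388 to 6.517. Of the 5 measured B cell markers 3 were lower, with array means of 6.39 to 6.48 and 6.35 to 6.37. The stellate, T and NK, erythroid, neutrophil, adipocyte and pancreatic lists had array means that overlapped between the strains. No marker passed after adjustment. The part of these cell types in the results on ribosomal protein genes was not tested. In whole tissue, fewer cells of a type and less RNA per cell cannot be told apart. The 3' minus 5' signal of Actb, a measure of RNA quality, ran from 0.59 to 0.61 in C57BL/6J and from 0.53 to 0.70 in B6.C3H-6T.

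The first question was whether liver of the congenic strain differs from C57BL/6J in the mRNA of ribosomal proteins. None of the 49 members passed (limma, adjusted over all genes at a threshold of 0.05), where 0.0715% of all genes were called. At an unadjusted p under 0.05 there were 5 members, 3 lower and 2 higher, which is 10.2% of the members against 12.2% of all genes (5.82% lower and 6.36% higher). The lower ones were Rps4l, Rps19 and Rpl22l1, and the higher ones Rpl27a and Rps16. The strains did not overlap at 8 members, 5 lower and 3 higher, or 16.3% against 17.8% of all genes (7.49% lower and 10.3% higher). Both shares lie near the background in the deposited scaling. The non-overlapping members numbered 14 (28.6%, against 17.8% of all genes) after each array was centred on its median, and 20 (40.8%, against 17.4%) after quantiles were normalized again. In the latter scaling 7 members (14.3%) were lower at an unadjusted p under 0.05, against 5.62% of all genes. The counts of non-overlapping members and of lower members thus depend on the scaling, and none of the members passed after adjustment in any of the 3 scalings.

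Differences were small throughout. The median over the members was -0.049, against 0.017 over all genes, and apart from Rps4l the members lay between -0.22 and 0.23. For 48 of the 49 the 95% interval of the difference lay within 0.5 of 0 on the log2 scale, which held for 94.4% of all genes. The exception was Rps4l, whose interval ran from -0.98 to -0.35. Within a strain the members varied little between mice, with a median SD of 0.074 against 0.094 over all genes.

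**Figure D1:**
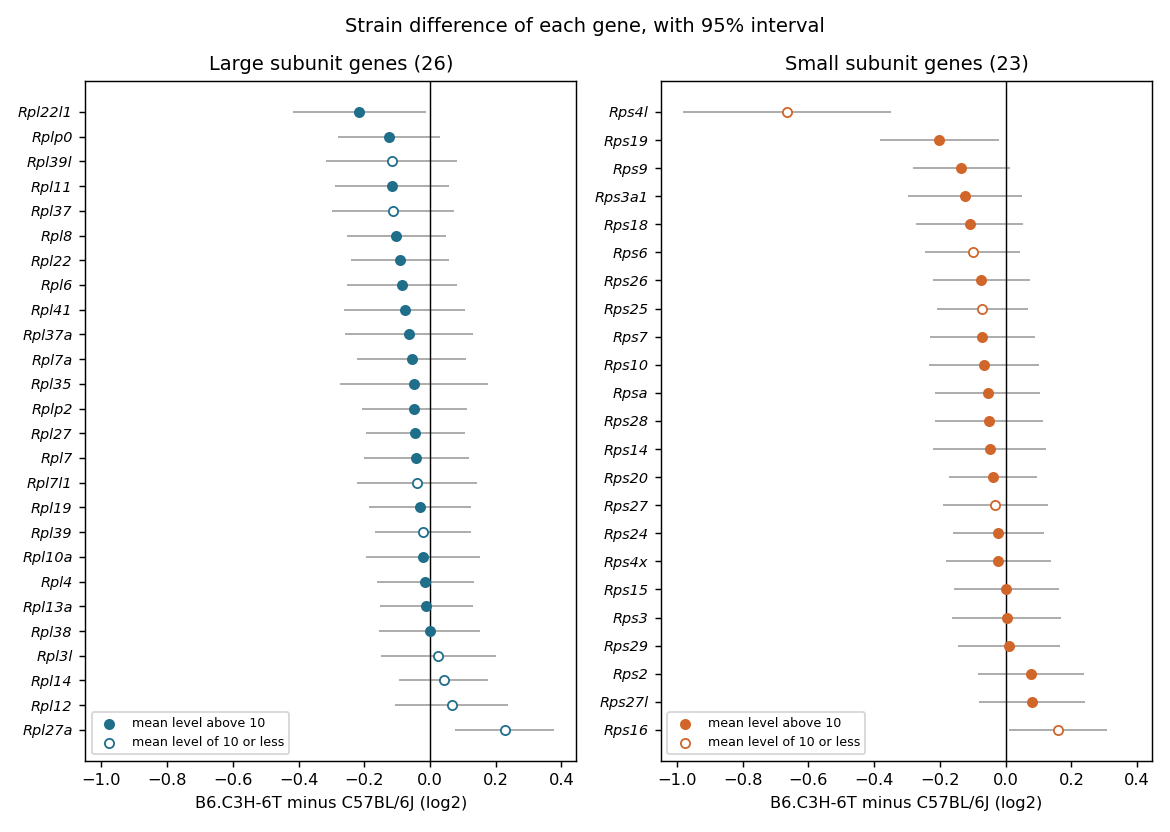
Difference between the strains (x axis, log2) for each of the 26 large subunit and 23 small subunit genes, with its 95% interval from limma; filled points have a mean level above 10 over the 6 arrays. Most points lie just left of 0 and only Rps4l stands well away from it, at -0.66.

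In direction, 39 of the 49 members were lower in B6.C3H-6T, against 43.9% of all genes. Of the 36 members whose probe set had a mean above 10, a division made after the values were seen, 31 were lower, against 42.5% of all genes with a mean above 10. The bright large subunit probe sets were all lower, 18 of 18, by up to 0.22, and 13 of the 18 bright small subunit ones were. Among the 13 members at a mean of 10 or less, 8 were lower. Of these 13, 2 were higher and 1 lower at an unadjusted p under 0.05 in limma (23.1%, against 12.2% of all genes). The strains did not overlap at 5 of the 13, 3 higher and 2 lower (38.5%, against 17.8% of all genes). The shares over all genes this dim were not counted. Of the 36 bright members 2, Rps19 and Rpl22l1, were lower at an unadjusted p under 0.05 and 0 were higher (5.56%). Of the 1677 genes this bright 114 were lower and 172 higher at that threshold (17.1%). The strains did not overlap at 3 of the 36 (8.33%), all lower. Over all genes this bright they did not overlap at 20.6%, 117 genes lower and 228 higher. Members shared the arrays on which they were high or low, as described next, so the count of lower members is not one of separate observations.

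**Figure D2:**
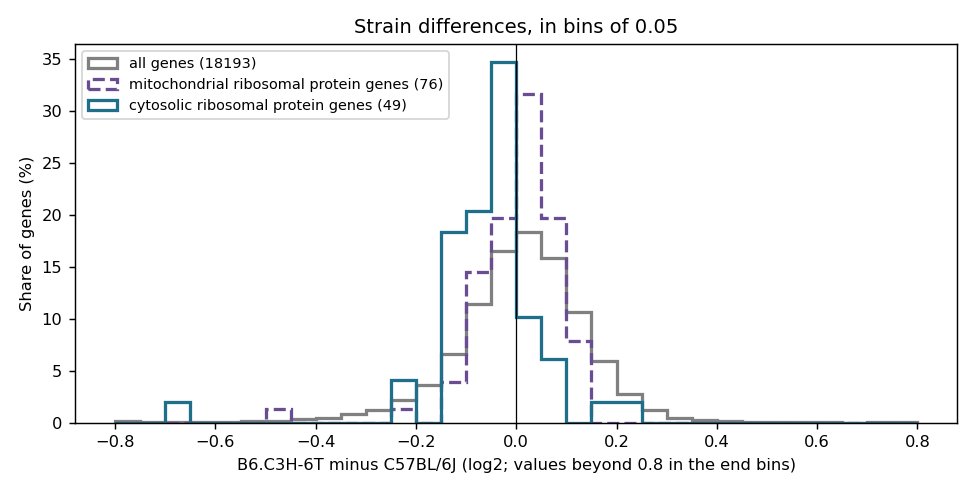
Share of genes (y axis, %) in bins of the strain difference (x axis, log2) for all 18193 genes, 76 mitochondrial and 49 cytosolic ribosomal protein genes. The cytosolic set is narrow and sits a little to the left, with a median of -0.049 against 0.017 for all genes and 0.014 for the mitochondrial set.

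The direction was not shared evenly by the arrays. The value of a gene minus its 6-array mean, averaged over the 49 members, was 0.012, 0.075 and -0.0046 in C57BL/6J replicates 1 to 3 and 0.014, -0.028 and -0.068 in B6.C3H-6T replicates 1 to 3. The strains overlapped, since B6.C3H-6T replicate 1 lay above C57BL/6J replicates 1 and 3. C57BL/6J replicate 2 held the highest of the 6 values for 29 of the 49 members, against 19.1% of all genes. B6.C3H-6T replicate 3 held the lowest for 30 of the 49, against 14% of all genes. Without C57BL/6J replicate 2 the lower members numbered 32 (65.3%, against 43.3% of all genes), with a median of -0.021. Without B6.C3H-6T replicate 3 they numbered 30 (61.2%, against 43.1%), with a median of -0.016, and the median of the large subunit genes became -0.0022. The members were thus more often lower than all genes with either array left out, by a smaller margin. Without any 1 of the other 4 arrays 38 to 42 members were lower.

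**Figure D3:**
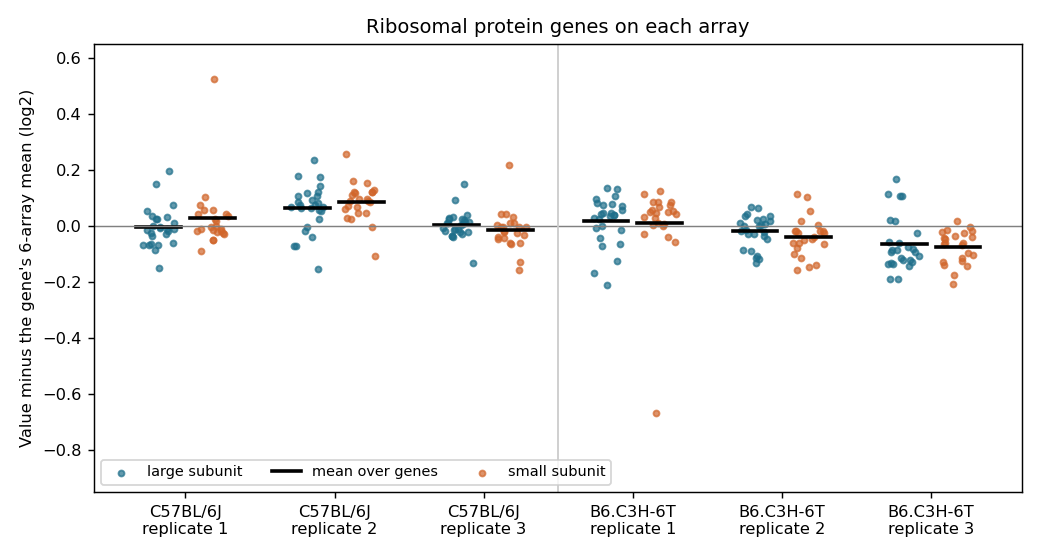
Each point is a gene's value minus its mean over 6 arrays (y axis, log2) on the array named on the x axis, for large and small subunit genes, with a black bar for the mean over genes. C57BL/6J replicate 2 sits highest and B6.C3H-6T replicate 3 lowest, and the other 4 arrays lie between them, where the strains overlap; the far points at replicate 1 of each strain are Rps4l.

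Large and small subunit genes had similar differences. The median difference was -0.046 for the 26 large subunit genes, with 22 lower, and -0.050 for the 23 small subunit genes, with 17 lower. The mean of the large minus the mean of the small subunit genes on the same array, a value from which a shift of the whole array cancels, was -0.52 ± 0.027 (SD, n = 3) in C57BL/6J and -0.49 ± 0.0062 (SD, n = 3) in B6.C3H-6T. The strains thus differed by 0.024 in this value, which became -0.0027 without Rps4l and -0.019 among the bright members. No p-value is given for these averages over chosen genes.

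Among the small subunit genes, Rps4l is the only member on chromosome 6 and was the farthest from 0. It is a copy of Rps4x, the X-linked gene for the small subunit protein S4. Its values were 8.64, 8.37 and 8.33 in the C57BL/6J mice and 7.45, 7.96 and 7.94 in the B6.C3H-6T mice. All 3 congenic mice lay below all 3 controls, and B6.C3H-6T replicate 1 lay lowest. The difference was -0.66 ± 0.14 (SE, 3 mice per strain), a 1.58-fold difference in signal, with a limma adjusted p of 0.188 over all genes and 0.163 to 0.435 without 1 array. It stood at place 97 by p among the 18193 genes. Only 1 probe set was paired with Rps4l alone, so no other probe set of that gene was compared. It lies on the chromosome that carries C3H DNA, and less transcript and weaker binding of C3H sequence to the probes cannot be told apart in these values.

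The representative of Rps4x differed by -0.022 ± 0.071, with a 95% interval of -0.18 to 0.14. Its other probe set, at a mean of 6.12 against 12.10 for the representative, was on the higher side, at 0.26, and the strains overlapped there. The within-array log2 ratio of Rps4l to Rps4x differed between the strains by -0.64 (two-sided exact permutation test, p = 0.1, the smallest possible with 3 against 3 mice, and 0.5 after adjustment over the 5 paralog pairs compared). This pair was added after the values were seen.

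**Figure D4:**
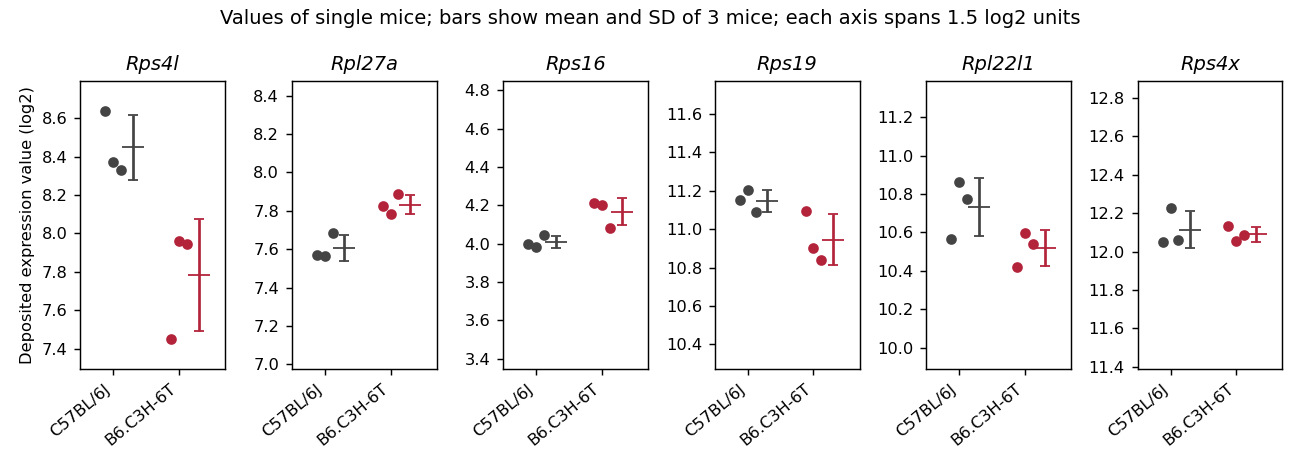
Deposited log2 values of single mice (points) with the mean and SD of 3 mice per strain for the 5 members at an unadjusted p under 0.05 and for Rps4x; each panel spans the same width on the y axis. The strains are apart at Rps4l, Rpl27a and Rps16 and overlap at Rps19, Rpl22l1 and Rps4x.

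Rps4l lies at place 983 of the 992 tested genes of chromosome 6 in their order in the gene table, near its end. Its 10 tested neighbours, 5 on each side, were looked at after its value was seen. Of these 9 differed by 0.10 or less, among them Tmtc1 (0.039 ± 0.079) and 4930528G23Rik (0.033 ± 0.092), the nearest on either side. Ipo8, which encodes a nuclear import receptor and lies 2 places on, had values of 8.99, 9.08 and 8.97 in C57BL/6J and 8.68, 8.61 and 8.67 in B6.C3H-6T. The strains did not overlap, and the difference was -0.36 ± 0.064 (limma adjusted p = 0.138). Over the whole chromosome 150 of 992 genes (15.1%) had an unadjusted p under 0.05, against 12.2% of all genes, and 85 of them were lower. Chromosome 6 held 6 of the 13 genes called over all chromosomes, which is 0.605% of its genes against 0.0715% of all genes. Rps4l was not among them. 

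**Figure D5:**
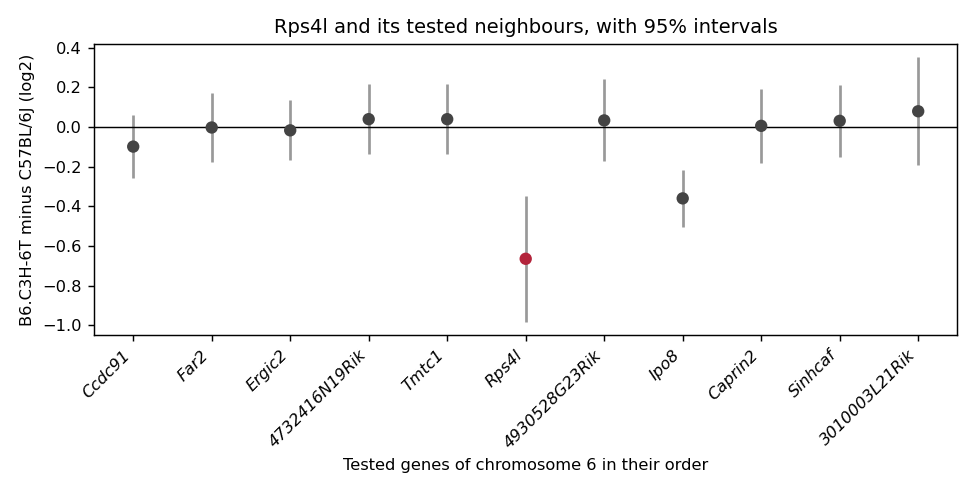
Strain difference (y axis, log2) with 95% intervals for Rps4l, in red, and the 5 tested genes on either side of it on chromosome 6, in gene table order. Rps4l at -0.66 and Ipo8 at -0.36 lie below 0 with their intervals, and the intervals of the other 9 genes include 0.

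Rps19, a small subunit gene needed for maturation of 18S rRNA, measured 11.15, 11.20 and 11.09 in C57BL/6J and 11.09, 10.90 and 10.84 in B6.C3H-6T. The highest congenic mouse lay just above the lowest control. The difference was -0.20 ± 0.080 (limma adjusted p = 0.376). Rps9 measured 11.78, 11.86 and 11.78 against 11.71, 11.60 and 11.71 with no overlap, a difference of -0.13 ± 0.066. Both of its other probe sets were on the lower side, at -0.061 and -0.18. Rps3a1 differed by -0.12 ± 0.077, Rps18 by -0.11 ± 0.072 and Rps6, the substrate of the S6 kinases, by -0.10 ± 0.065. The single other probe set of Rps6 was on the higher side, at 0.083, and those of Rps18 ran from -0.16 to 0.082. The representative of Rps6 had a mean of 7.69, against a median of 12.10 over the members. Whether it reads the main transcript was not tested. Rpsa, whose product is also known as a laminin receptor, differed by -0.055 ± 0.071.

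Rps16 was higher in B6.C3H-6T, at 4.00, 3.98 and 4.04 in C57BL/6J and 4.21, 4.20 and 4.08 in the congenic mice, a difference of 0.16 ± 0.066 (limma adjusted p = 0.386). Its mean of 4.09 is close to the lowest value on the arrays, 3.14. Other probe sets for Rps16 are paired with several genes and could not represent it. Rps27l differed by 0.080 ± 0.071, with 2 other probe sets at 0.051 and 0.078, and Rps2 by 0.078 ± 0.072. Of the small subunit genes, Rps29, Rps3 and Rps15 lay nearest to 0, at 0.010, 0.0028 and 0.0018, with SEs of 0.069, 0.074 and 0.071. All other probe sets of these 3 genes were on the lower side.

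Among the large subunit genes, Rpl22l1 had the lowest difference. It is the paralog of Rpl22, which binds RNA and holds back its paralog's expression in mouse cells. Rpl22l1 measured 10.56, 10.86 and 10.78 in C57BL/6J and 10.42, 10.60 and 10.54 in B6.C3H-6T. The strains overlapped, because C57BL/6J replicate 1 lay among the congenic mice. The difference was -0.22 ± 0.090 (limma adjusted p = 0.388). Rpl22 differed by -0.091 ± 0.066, with other probe sets at 0.041 and -0.22.

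Rplp0, which anchors the stalk where elongation factors bind, measured 12.46, 12.51 and 12.43 against 12.43, 12.32 and 12.27, a difference of -0.12 ± 0.068. The strains overlapped through B6.C3H-6T replicate 1 alone. The stalk gene Rplp2 differed by -0.048 ± 0.071. Rpl8 had values of 11.93, 11.94 and 11.84 in C57BL/6J and 11.84, 11.84 and 11.72 in B6.C3H-6T. The strains did not overlap, but the nearest mice share the same rounded value. Rpl8 differed by -0.10 ± 0.067. Rpl11, which binds MDM2 when free of the ribosome, differed by -0.11 ± 0.077. None of these passed, and of the 28 named members Rps4l had the lowest limma adjusted p, 0.188.

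Rpl27a had the highest difference of all members, with values of 7.57, 7.57 and 7.68 in C57BL/6J and 7.83, 7.79 and 7.89 in B6.C3H-6T. All 3 congenic mice lay above the controls, and the difference was 0.23 ± 0.067 (limma adjusted p = 0.28). Its other probe set, at a low mean of 4.69, differed by 0.10 and the strains overlapped there. Rpl12 differed by 0.066 ± 0.076, Rpl14 by 0.042 ± 0.060 and Rpl3l, a form of Rpl3 used in muscle, by 0.025 ± 0.078. All 4 large subunit genes on the higher side were represented by probe sets with means of 7.72 or less, against a median of 12.10 over the members. Whether these probe sets read the main transcripts of their genes was not tested. Further probe sets for Rpl27a, Rpl12 and Rpl14 are paired with several genes.

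In the remaining paralog pairs no difference in ratio was detected. By the two-sided exact permutation test, the ratio of Rpl22l1 to Rpl22 differed by -0.12 (p = 0.4), of Rps27l to Rps27 by 0.11 (p = 0.2), of Rpl39l to Rpl39 by -0.094 (p = 0.4) and of Rpl7l1 to Rpl7 by 0.0016 (p = 1). With 3 mice per strain no p under 0.1 is possible. The Rps27 probe set had a mean of 7.41, against 11.97 for Rps27l, whose probe set ends in _x_at. Whether these 2 probe sets read the main transcripts of their genes was not tested.

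Taking all probe sets gave similar shares. Of the 105 probe sets paired with a single member, 77 were lower and the median difference was -0.049, against 43.5% lower over all probe sets. Those with a mean above 10 were lower in 57 of 68 cases and the dimmer ones in 20 of 37. The 110 probe sets paired with several genes were lower in 79 cases, with a median of -0.048, and 63 of the 79 with a mean above 10 were lower. None of either set passed in limma over all probe sets, where 0.0577% were called. At an unadjusted p under 0.05, 7 of the 105 and 4 of the 110 were found, against 10.6% of all probe sets. Ribosomal protein genes have many processed pseudogenes of near-identical sequence, so a probe set can read several copies, and 15 of the 49 representatives end in _x_at or _s_at, the marks of such sharing.

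Other genes of the ribosome and of translation were counted from lists written from general knowledge. Fau, whose product includes a small subunit protein that the symbol rule does not catch, differed by 0.023 ± 0.064. The 76 mitochondrial ribosomal protein genes, the set most like this one, were lower in 31 cases (40.8%), with a median of 0.014, and 2 (2.63%, against 12.2% of all genes) had an unadjusted p under 0.05, Mrpl35 (-0.45 ± 0.072, limma adjusted p = 0.101), which lies on chromosome 6, and Mrpl9 (-0.22 ± 0.066). The difference between the cytosolic and mitochondrial sets was not tested.

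Of 66 ribosome assembly factors 40 were lower (60.6%), 6 of them and 0 of the higher ones at an unadjusted p under 0.05 in limma (9.09% of the list, against 12.2% of all genes), with a median of -0.049. Ebna1bp2, an assembly factor of the large subunit, had values of 7.75, 7.85 and 7.63 in C57BL/6J and 7.54, 7.40 and 7.47 in B6.C3H-6T, a difference of -0.28 ± 0.077 (adjusted p = 0.265). Rrp1b differed by -0.28 ± 0.084 and the nucleolar chaperone gene Npm1 by -0.22 ± 0.076. For all 3 the strains did not overlap and none passed over all genes.

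Among 35 subunits and factors of RNA polymerases I and III, which make ribosomal RNA, 20 were lower, with 3 lower and 2 higher at an unadjusted p under 0.05 (14.3%, against 12.2% of all genes). Polr1a, the largest subunit of RNA polymerase I and also a chromosome 6 gene, measured 6.88, 7.02 and 6.94 in C57BL/6J and 6.37, 6.29 and 6.69 in B6.C3H-6T, a difference of -0.50 ± 0.10 (limma adjusted p = 0.18). Twistnb, another polymerase I subunit, differed by -0.23 ± 0.083, and Polr3gl, of polymerase III, by 0.19 ± 0.072.

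Translation initiation factors were lower in 24 of 32 cases (75%, against 43.9% of all genes), 3 at an unadjusted p under 0.05 (9.38%, against 12.2%), with a median of -0.026. Those 3 were Eif5 (-0.25 ± 0.078, limma adjusted p = 0.301), Eif3a (-0.21 ± 0.073) and Eif2b4 (-0.25 ± 0.093). Of 13 elongation and termination factors 7 were lower, and Eef1b2, whose mRNA belongs to the same pyrimidine tract class, differed by -0.23 ± 0.072 (adjusted p = 0.301). Etf1 differed by -0.16 ± 0.076 and Eif5a by 0.13 ± 0.082.

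The list of the mTORC1 pathway and control of ribosomal protein mRNA was broader than mTORC1 itself, and also names transcription factors such as Myc and Yy1. Of its 33 measured genes 17 were lower, with a median of -0.0012. At an unadjusted p under 0.05, 3 were lower and 2 higher (15.2%, against 12.2% of all genes). The smallest p of this list belonged to the mTORC1 inhibitor gene Ddit4 (0.87 ± 0.14, limma adjusted p = 0.101), followed by Sesn3 (0.27 ± 0.073) and Rps6ka3 (-0.24 ± 0.072). Of the 13 measured genes in the p53 branch, which responds to free ribosomal proteins, 7 were higher, with a median of 0.034. Tigar differed by 0.19 ± 0.082, Cdkn1a by 0.23 ± 0.11 and Gtse1 by 0.12 ± 0.070, and none passed.

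Noncoding hosts of small nucleolar RNAs share the pyrimidine tract start with ribosomal protein genes. Of 15 measured, 9 were lower, 6 of them at an unadjusted p under 0.05, and 1 higher gene was too, 46.7% of the list against 12.2% of all genes. Snhg1 measured 9.23, 9.20 and 9.10 in C57BL/6J and 8.45, 8.34 and 8.32 in B6.C3H-6T and fell by 0.81 ± 0.069 (limma adjusted p = 0.00315), the only gene of these lists to pass over all genes. Snhg12 differed by -0.45 ± 0.084 (adjusted p = 0.152) and Gas5 by -0.38 ± 0.088 (adjusted p = 0.211). Apart from Rps4l, no cytosolic ribosomal protein gene differed by as much as Gas5.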

How the data were processed

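Liver RNA of 6 mice was hybridised, 1 array per mouse. The authors deposited log2 values for each probe set. Per the submitters' processing notes the tools were RMA and affy, with versions not given in the sources used here, and the scans were quantified in GCOS 1.2 per the labels.

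Of 45101 probe sets, 64 controls were left out. In the platform annotation 34945 of the rest had 1 gene, 932 several and 9160 none, and genes were matched by identifier to a RefSeq table (GRCm38.p6) for type, chromosome and order. The strains were set against each other over all 18193 genes by limma (version 3.58.1, R 4.3.3; lmFit, then eBayes, no covariate). Benjamini-Hochberg adjustment ran over all genes, with 0.05 as the threshold, and intervals are limma's 95% intervals. The script was tested on simulated data. The number of arrays limits the precision. Replicate numbers follow sample order and only name a mouse.

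The members and lists were chosen with earlier results of these data known. By rule the text names the 10 lower and 10 higher members of smallest p, members on chromosome 6, listed paralog pairs, stalk genes, Rps6, Rpl11 and Rpsa, and per list the 3 genes of smallest p and any that passed. Ribosomal protein genes whose probe sets are all paired with several genes, such as Rpl3, Rpl5 and Rplp1, were not analysed singly. Alternatives covered the choice of probe set, scaling, filters, variance model, membership and each array left out.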

Additional observations from a re-analysis of the deposited data

How the results depend on the processing

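The count of members past the adjusted threshold was 0 under every alternative run. In the main setting 3 members were lower and 2 higher at an unadjusted p under 0.05 in limma (5.82% and 6.36% of all genes were). Taking the mean of all probe sets of a gene gave 4 lower of the 49, and the share of all genes was not counted there. Leaving out 1 array moved the lower count from 1 without C57BL/6J replicate 2 (2.04%, against 4.95% of all genes) to 5 without B6.C3H-6T replicate 1 (10.2%, against 6.04%). The higher count moved from 1 to 2, where 3.58% to 7.48% of all genes were higher. Members without overlap, 8 in all 6 arrays, ran from 9 without B6.C3H-6T replicate 2 (18.4%, against 24.5% of all genes) to 23. They numbered 14 without C57BL/6J replicate 3 (28.6%, against 26.9% of all genes) and 23 without B6.C3H-6T replicate 1 (46.9%, against 28.2%). The median difference ran from -0.076 to -0.0022 for the large and from -0.090 to -0.020 for the small subunit, the members lower at any size from 30 to 42 and the large minus small value from 0.014 to 0.040. Centring each array on its median gave 4 lower (8.16%, against 7.98% of all genes), 1 higher (3.85% of all genes were) and 14 without overlap (28.6%, against 17.8%). Normalizing quantiles again gave 7 lower (14.3%, against 5.62%), 1 higher (6.03% of all genes were) and 20 without overlap (40.8%, against 17.4%). Only genes above the median level gave 1 higher and 5 without overlap among 43 members, and the share of all genes was not counted there. Members with a mean above 10 gave 0 higher, 3 without overlap (8.33%, against 20.6% of genes this bright) and a large minus small value of -0.019. Without paralogs 1 of 43 members was lower, where 5.82% of all genes were in the main setting. Without Rps4l the large minus small value was -0.0027.

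Some members changed sign, most of them close to 0 but also Rps18 (-0.11 in the main setting) and Rpl22 (-0.091). With the probe set of median p these were Rpl7l1 (0.032), Rps15 (-0.032), Rps18 (0.082), Rps29 (-0.052) and Rps3 (-0.043). With the mean of all probe sets they were Rps29 (-0.035), Rps15 (-0.015), Rpl7l1 (0.017) and Rps3 (-0.058). Without _x_at and _s_at probe sets it was Rpl22 (0.041). After centring they were Rpl3l (-0.00038), Rps15 (-0.024), Rps29 (-0.015) and Rps3 (-0.023), and after quantiles again Rpl39 (0.015), Rps15 (-0.036), Rps29 (-0.035) and Rps3 (-0.0083). Leaving out 1 array moved Rps15 from -0.041 to 0.053, Rps29 from -0.020 to 0.061, Rps3 from -0.054 to 0.039, Rpl3l from -0.017 to 0.079, Rpl39 from -0.041 to 0.0074, Rpl7 from -0.091 to 0.0056 and Rpl7l1 from -0.11 to 0.016. The cause of these changes was not tested. No paired analysis was possible because the labels give the strains no shared replicate numbers. Centring moved the share of all genes lower from 43.9% to 53.4% and the members lower from 39 to 43. Levels near the bottom of the arrays' range limit what Rps16, Rpl14, Rpl3l and Rpl39l can show.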
